A study of Mus musculus with 6 samples.

Results

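Coagulation and fibrinolysis genes were compared between Cbl-b-/- and WT dorsal skin taken 24 h after UVB. The set comprised 35 genes listed by function, covering clotting factors, their inhibitors and receptors and the enzymes that dissolve fibrin. Of these, 32 had a row of their own in the array table (a transcript cluster annotated with that gene symbol alone), out of 19938 gene symbols with such a row. A gene with several rows was represented by the row of highest mean over the 6 arrays, which applied only to Fga. F2rl1 and Cpb2 were not analysed here, and neither was Klkb1, whose transcript cluster is shared with Cyp4v3. F3 was already known from the study to be higher on these arrays, so its call below is not independent evidence.

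Cbl-b-/- mice lack Cbl-b, an E3 ubiquitin ligase that restrains T-cell activation, and were compared with BL6 WT mice matched in sex and age. The ages and how the allele was made are not given in the sources used here. Mice of both genotypes had their dorsal skin shaved and then exposed once to 80 mJ/cm2 of UVB, so UVB is shared by both groups, and nonirradiated skin was not analysed here. Dorsal skin RNA was profiled with Mouse Gene 1.0 ST arrays from Affymetrix, with 3 arrays per genotype described as biological replicates. Such skin holds epidermis, hair follicles, dermis, vessels, fat and muscle together, so fewer cells of a type and less RNA per cell cannot be told apart.

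Clotting starts when tissue factor on cells outside the vessel meets factor VII from plasma. The resulting cascade of serine proteases forms thrombin, which cuts fibrinogen to fibrin and signals to cells through protease-activated receptors. Thrombomodulin and protein C turn the cascade off, and plasmin, made from plasminogen by the activators of the urokinase and tissue types, dissolves the clot. Most plasma factors are made in the liver, whereas keratinocytes, fibroblasts, endothelium and macrophages of the skin make tissue factor, urokinase, thrombomodulin and the factor XIII A chain.

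The deposited values are log2 expression levels. Array medians lay between 6.30 and 6.34, and correlations between arrays (across rows) between 0.980 and 0.993. Cblb, the targeted gene, was lower in Cbl-b-/- skin (8.61, 8.69 and 8.61 on the log2 scale) than in WT skin (9.90, 9.66 and 9.72). Keratinocyte markers placed all arrays as skin, with a mean level of 11.06 to 11.46 in Cbl-b-/- and 10.90 to 11.38 in WT arrays over 6 of 6 listed genes. A pair of arrays stood apart. WT replicate 3 had a mean level of 9.46 over 13 hair follicle genes, against 5.52 to 7.12 in the other arrays, and Cbl-b-/- replicate 2 had the highest neutrophil and keratinocyte and the lowest adipocyte and skeletal muscle levels of all 6 arrays.

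F3, encoding tissue factor, and Plau, encoding the urokinase plasminogen activator, were higher in Cbl-b-/- skin than in WT skin at an unadjusted p under 0.05 in limma, as was F12, factor XII, by a small difference close to background. The estimate was 1.58-fold for F3 and 1.42-fold for Plau, and no gene of the set passed after adjustment over all rows. Of the 32 genes, F3 alone met the study's thresholds (an unadjusted p under 0.05 and at least a 1.5-fold difference), as higher, and 0 met them as lower. Over all 35556 rows of the table, 0.276% met the thresholds as higher and 0.945% as lower, and over the 21789 rows with 1 gene symbol 0.216% and 0.28%. Leaving out Cbl-b-/- replicate 2 raised the count at the thresholds to 4 (F3 as higher, F10, Thbd and Procr as lower). Leaving out Cbl-b-/- replicate 3 left Plaur as the only gene, and without WT replicate 1 or WT replicate 3 there were 2. In these fits, in the same order, 790, 518, 553 and 512 of all rows met the thresholds, against 434 with all arrays. At an unadjusted p under 0.05 in limma, 3 of the 32 were higher and 0 lower, where 3.68% of all rows were higher and 2.87% lower, and 3.72% and 1.63% of the rows with 1 gene symbol. After cyclic loess (a scaling that removes differences between arrays that follow the level), 808 of all rows were higher and 1337 lower at that p (1307 and 1022 on the deposited values), and the genes of the set that passed were F3 and Plau. None of the 32 passed at an adjusted p under 0.05 in limma (0.00281% of all rows did) or in the methods' test, with F3 reaching the lowest adjusted p in limma, 0.675. With 3 arrays per genotype, an exact permutation test of a single gene cannot give a two-sided p below 0.10.

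The estimates of 23 of the 32 genes lay above 0 and those of 9 below it. Their median log2 fold change (Cbl-b-/- minus WT) was 0.13, beside 0.028 over the rows with 1 gene symbol, of which 58.4% lay above 0. The median was 0.065 without Cbl-b-/- replicate 2. In 8 genes every Cbl-b-/- array lay above every WT array, namely F3, F7, Tfpi2, F12, Vwf, Fga, Proz and Plau, and in 0 genes below, while 8.66% of all rows lay above and 4.89% below, and 9.5% and 4.11% of the rows with 1 gene symbol. The count of 8 depended on the scaling between arrays. After cyclic loess F3, F12, Vwf and Plau were the 4 genes still above and F2 was the 1 gene below, with 5.66% and 6.58% of all rows.

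**Figure D1:**
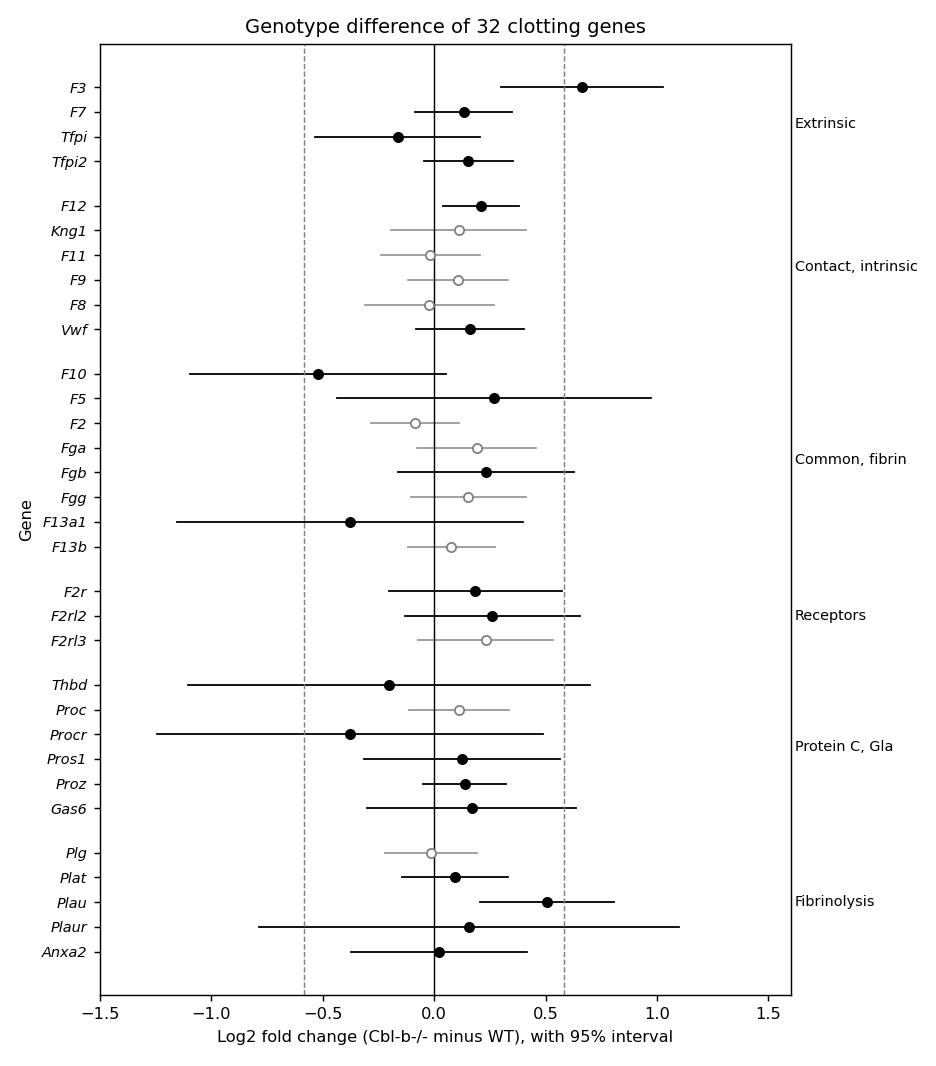
Difference in expression between 3 Cbl-b-/- and 3 WT arrays (horizontal axis, log2 fold change, Cbl-b-/- minus WT) for 32 coagulation and fibrinolysis genes (vertical axis, by role). Points are limma estimates with 95% intervals, open grey points are genes at or under the background level in both genotypes, and dashed lines mark 1.5-fold; F3 at 0.66 alone lies beyond a dashed line, and the intervals of F3, Plau and F12 alone do not reach 0.

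A background level was set as the 95th percentile of 1210 olfactory and vomeronasal receptor rows, genes with little or no transcript in skin. It stood at 5.41 in Cbl-b-/- and 5.30 in WT skin on the log2 scale. By this measure 21 of the 32 genes lay above background in at least 1 genotype, and 11 did not. The 11 were Kng1, F11, F9, F8, F2, Fga, Fgg, F13b, F2rl3, Proc and Plg, of which all but F8 and F2rl3 are made chiefly by hepatocytes. Their log2 fold changes ran from −0.088 to 0.23 and 0 had an unadjusted p under 0.05 in limma. Among the 5799 rows with 1 gene symbol at or under background in both genotypes, 72.0% had an estimate above 0, with a median of 0.060, and the 11 genes had 7 above 0 and a median of 0.11. The 7 measured hepatocyte markers had a mean level of 5.55 to 5.73 in Cbl-b-/- and 5.52 to 5.57 in WT arrays.

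**Figure D2:**
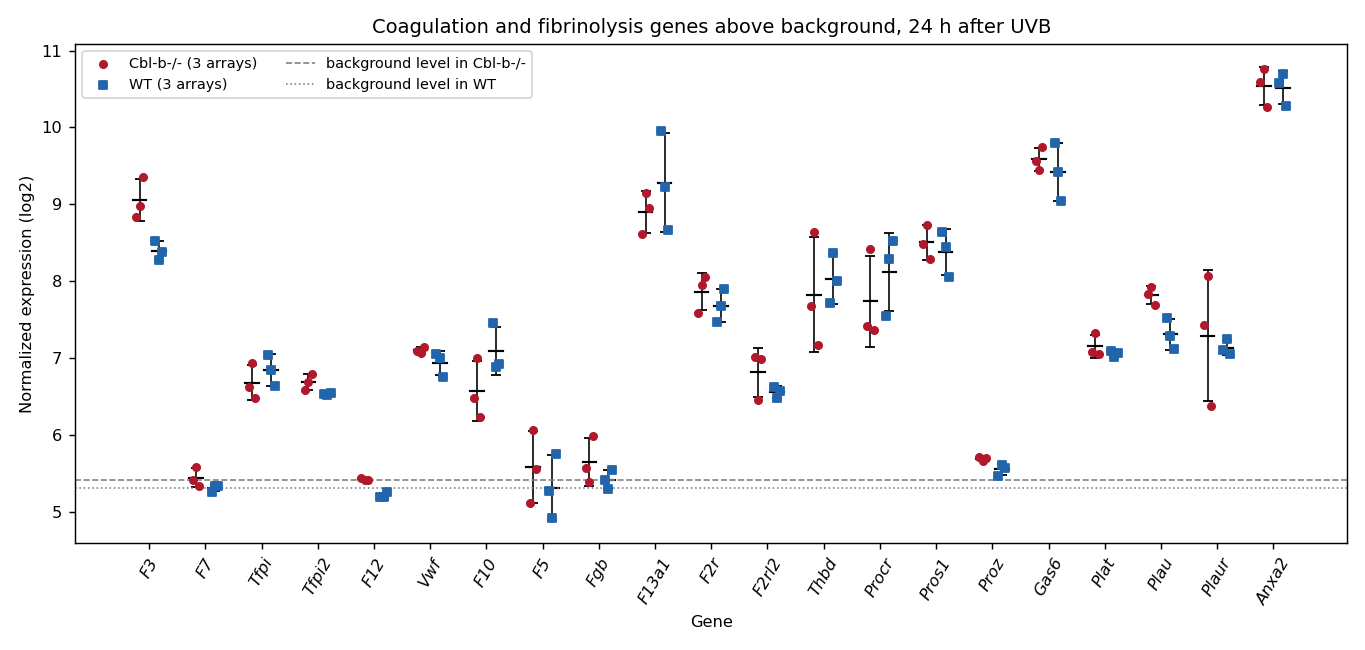
Log2 expression level (vertical axis) of the 21 genes above background in at least 1 genotype (horizontal axis). Each circle is a Cbl-b-/- array and each square a WT array, whiskers around a bar give the SD around the mean (n = 3), and grey lines are the background levels of 5.41 (dashed, Cbl-b-/-) and 5.30 (dotted, WT); F3 and Plau show a gap between the genotypes, while Thbd and Plaur spread widely within Cbl-b-/- and Procr within both genotypes.

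Tissue factor, the membrane protein that starts the extrinsic pathway, showed the highest fold change of the set. F3 read 8.83, 8.98 and 9.36 in the 3 Cbl-b-/- arrays, against 8.52, 8.28 and 8.38 in the WT arrays. The lowest Cbl-b-/- array thus lay above the highest WT array, and replicate 3 was the highest of the Cbl-b-/- arrays. This gave a log2 fold change of 0.66 (standard error 0.15, 95% interval 0.30 to 1.03, unadjusted p = 0.00383 and adjusted p = 0.675 from limma). Without Cbl-b-/- replicate 3 it was 0.51, under the 1.5-fold threshold. In the fits without any other array it met the thresholds, at 0.60 to 0.78, the value without WT replicate 3 being 0.66. The keratinocyte list had no gene at an unadjusted p under 0.05 in limma, and the mean level of 6 dermal fibroblast genes was 10.23 to 10.34 in Cbl-b-/- and 10.33 to 10.55 in WT arrays. Within Cbl-b-/- skin the fibroblast, macrophage, mast cell and hair follicle lists rose from replicate 1 to replicate 3, as F3 did. In WT skin none of these lists had the order of F3. The part of any cell type in the F3 values was not tested.

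The promoter of F3 is shown because F3 carries the main difference, beside that of F12, the other of the 3 higher genes with a sequence in the RefSeq table (build GRCm38.p6). Each run gives the 250 bases before the transcription start, 5′ to 3′ on the strand of the gene, at chr3:121723287-121723536 (plus strand) for F3 and chr13:55426805-55427054 (minus strand) for F12. Capitals mark matches on either strand to the AP-1 motif TGANTCA and to the GC box GGGCGG.
F3: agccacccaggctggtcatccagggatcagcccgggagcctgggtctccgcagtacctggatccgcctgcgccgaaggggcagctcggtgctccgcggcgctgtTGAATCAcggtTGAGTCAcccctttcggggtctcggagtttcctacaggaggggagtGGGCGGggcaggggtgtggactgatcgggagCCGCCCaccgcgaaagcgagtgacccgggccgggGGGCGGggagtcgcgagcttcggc
F12: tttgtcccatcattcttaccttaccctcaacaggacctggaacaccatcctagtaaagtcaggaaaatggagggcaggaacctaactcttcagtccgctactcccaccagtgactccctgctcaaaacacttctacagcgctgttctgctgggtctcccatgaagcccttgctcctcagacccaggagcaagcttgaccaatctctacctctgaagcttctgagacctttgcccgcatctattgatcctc
F3 holds 2 AP-1 matches, beginning 146 and 135 bases before the start, and 3 GC boxes, none of which overlap an AP-1 match. F12 holds neither. Over 32851 promoter windows of this length, 6.75% hold an AP-1 match and 32.7% a GC box. Of the 25 measured genes with a promoter in the table (29 windows), 9 hold an AP-1 match, in 9 windows. F2rl2 holds 2 matches, as F3 does. Of the 9 genes F3 alone met the thresholds with all arrays, and F2rl2, Procr, Plaur and Anxa2 were among those that did not.

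The other extrinsic genes showed smaller differences. F7, the plasma protease that binds tissue factor, averaged 5.44 ± 0.13 in Cbl-b-/- and 5.31 ± 0.04 in WT skin (SD, n = 3 each), at the background level, with a log2 fold change of 0.13 (95% interval −0.084 to 0.35), and 0.065 without Cbl-b-/- replicate 2. Tfpi, the inhibitor that binds the complex of tissue factor and factor VII, read 6.62, 6.93 and 6.48 in Cbl-b-/- arrays, against 7.04, 6.85 and 6.64 in WT arrays. The genotypes overlapped, and the log2 fold change was −0.16 (95% interval −0.54 to 0.21), −0.29 when Cbl-b-/- replicate 2 was left out and −0.27 when WT replicate 3 was. It was −0.064 without WT replicate 1 and −0.065 without Cbl-b-/- replicate 3. Tfpi2, a related inhibitor that also acts on plasmin, read 6.58, 6.69 and 6.79 in Cbl-b-/- arrays and 6.53, 6.52 and 6.54 in WT arrays. That difference of 0.15 (95% interval −0.044 to 0.35) came without overlap on the deposited values and with overlap after cyclic loess.

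Among the contact and intrinsic factors, F12 was higher in Cbl-b-/- skin. It encodes factor XII, the protease that starts clotting on charged surfaces, and read 5.44, 5.42 and 5.41 in Cbl-b-/- arrays, against 5.20, 5.19 and 5.25 in WT arrays. The arrays of each genotype were close together and did not overlap, but the Cbl-b-/- level only just reached the background level and the WT level was under it. On the log2 scale F12 differed by 0.21 (standard error 0.070, unadjusted p = 0.0220 and adjusted p = 0.743 from limma). The unadjusted p was 0.0643 after cyclic loess, and 0.0531 to 0.0685 when Cbl-b-/- replicate 1, Cbl-b-/- replicate 2, WT replicate 1 or WT replicate 2 was left out.

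Vwf, the large adhesive protein of endothelium and platelets that carries factor VIII, read 7.09, 7.06 and 7.14 in Cbl-b-/- arrays, against 7.05, 6.999 and 6.76 in WT arrays. WT replicate 3 was the lowest, and the highest WT array lay just under the lowest Cbl-b-/- array. For Vwf the log2 fold change was 0.16 (95% interval −0.080 to 0.40), and 0.071 without WT replicate 3. The mean level of 8 blood endothelial genes was 7.58 to 7.75 in Cbl-b-/- and 7.05 to 7.64 in WT arrays, with WT replicate 3 again the lowest. Cldn5 and Egfl7 of that list passed an unadjusted p under 0.05 in limma as higher, where 3.68% of all rows did, and 0 of the 8 met the study's thresholds. The other genes of the list overlapped between genotypes, and Cdh5 had a log2 fold change of −0.018. Over 6 of 8 platelet genes the mean level was 6.69 to 6.96 in Cbl-b-/- and 6.61 to 6.70 in WT arrays. The part of either list in the Vwf values was not tested. F8, F9, F11 and Kng1 (the precursor of bradykinin) stayed at or under background, with log2 fold changes of −0.021 to 0.11.

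In the common pathway the genes with a level above background pointed both ways. F10, the protease that forms thrombin together with factor V, read 6.48, 7.0001 and 6.23 in Cbl-b-/- arrays, against 7.46, 6.89 and 6.93 in WT arrays. Cbl-b-/- replicate 2 lay within the WT range and the other Cbl-b-/- arrays under it. The log2 fold change was −0.52 (standard error 0.24, 95% interval −1.10 to 0.051, unadjusted p = 0.0678 from limma). Without Cbl-b-/- replicate 2 it was −0.74 and met the study's thresholds as lower (adjusted p = 0.599 from limma). It was weaker, at −0.34 without WT replicate 1 and −0.35 without Cbl-b-/- replicate 3, and met the thresholds in neither fit.
F13a1, the A chain of the enzyme that crosslinks fibrin and a marker of dermal macrophages, read 8.61, 9.15 and 8.95 in Cbl-b-/- arrays, against 9.95, 9.22 and 8.67 in WT arrays. The WT arrays spanned the whole Cbl-b-/- range but for its lowest array, and their SD of 0.64 lay above the 95th percentile of all rows (0.45). The log2 fold change was −0.38 (95% interval −1.16 to 0.40), −0.042 without WT replicate 1 and −0.68 without WT replicate 3, where it met the study's thresholds (adjusted p = 0.633 from limma). The mean level of 8 macrophage genes was 8.60, 8.83 and 8.99 in Cbl-b-/- arrays and 9.30, 8.62 and 8.52 in WT arrays. WT replicate 1 was highest for the macrophage list, F13a1 and F10 alike. F13a1 had the order of that list over all WT arrays, and F10 did not. Within Cbl-b-/- skin F13a1 shared the lowest array of the list, replicate 1, but was highest in replicate 2. F10 was lowest in Cbl-b-/- replicate 3, where the list was highest. The part of macrophages in these values was not tested.
F5, the cofactor of factor X, lay near background and varied within both genotypes, at 5.12, 6.06 and 5.56 in Cbl-b-/- arrays and 5.26, 4.91 and 5.75 in WT arrays. Its log2 fold change of 0.27 was 0.027 if Cbl-b-/- replicate 2 was left out and 0.49 if WT replicate 3 was. Fgb, the beta chain of fibrinogen, averaged 5.65 ± 0.31 in Cbl-b-/- and 5.42 ± 0.12 in WT skin (SD, n = 3 each), with the highest value in Cbl-b-/- replicate 3 (5.99). Its log2 fold change of 0.23 was 0.062 without Cbl-b-/- replicate 3 and 0.37 without Cbl-b-/- replicate 2. The alpha and gamma chains, Fga and Fgg, and F2, which encodes prothrombin, stayed at or under background. F13b, the carrier chain of factor XIII, averaged 3.15 in Cbl-b-/- and 3.07 in WT skin.

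Of the 3 measured protease-activated receptors, through which thrombin and related proteases signal, 0 passed an unadjusted p under 0.05 in limma with all arrays, and F2rl2 and F2rl3 passed as higher without Cbl-b-/- replicate 2. In that fit 1345 of all 35556 rows passed as higher and 1311 as lower. F2r (PAR1), the main thrombin receptor of fibroblasts and endothelium, read 7.59, 7.95 and 8.05 in Cbl-b-/- arrays, against 7.46, 7.68 and 7.89 in WT arrays. The genotypes overlapped, with a log2 fold change of 0.19 (95% interval −0.20 to 0.57), 0.29 without WT replicate 3 and 0.078 without WT replicate 1. F2rl2 (PAR3) read 7.01, 6.45 and 6.99 in Cbl-b-/- arrays and 6.63, 6.47 and 6.57 in WT arrays. Cbl-b-/- replicate 2 was the lowest of all 6 arrays and the other Cbl-b-/- arrays the highest, so the log2 fold change was 0.26 with all arrays and 0.44 without that replicate (unadjusted p = 0.00388 from limma), which stays under 1.5-fold. The estimate was 0.16 without Cbl-b-/- replicate 1. F2rl3 (PAR4), a thrombin receptor of mouse platelets, lay under background on average in both genotypes, at 5.33 in Cbl-b-/- and 5.10 in WT skin. The difference of 0.23 on the log2 scale was 0.34 without Cbl-b-/- replicate 2 (unadjusted p = 0.0319 from limma) and 0.11 without Cbl-b-/- replicate 1.

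In the protein C pathway the level of the receptors differed more between arrays than between genotypes. Thbd, encoding thrombomodulin, which turns thrombin into an activator of protein C, read 7.68, 8.64 and 7.16 in Cbl-b-/- arrays, against 7.71, 8.37 and 7.9999 in WT arrays. Procr, the endothelial receptor for protein C, read 7.42, 8.42 and 7.37 in Cbl-b-/- arrays, against 7.54, 8.29 and 8.52 in WT arrays. For both genes Cbl-b-/- replicate 2 was high and the other Cbl-b-/- arrays were low, under every WT array. The log2 fold changes were −0.20 (95% interval −1.10 to 0.70) for Thbd and −0.38 (95% interval −1.25 to 0.49) for Procr. Without Cbl-b-/- replicate 2 they were −0.61 and −0.72, and both met the study's thresholds as lower (adjusted p = 0.667 from limma for each). Without Cbl-b-/- replicate 3 the sign for Thbd turned, to 0.13, and without WT replicate 3 the value for Procr was −0.18.
Pros1, encoding protein S, the cofactor of activated protein C, read 8.48, 8.74 and 8.29 in Cbl-b-/- arrays and 8.64, 8.44 and 8.05 in WT arrays. Gas6, its relative that activates the receptors Tyro3, Axl and Mertk, read 9.56, 9.45 and 9.74 in Cbl-b-/- arrays and 9.79, 9.42 and 9.04 in WT arrays. Both overlapped between genotypes and were lowest in WT replicate 3. Their log2 fold changes, 0.12 for Pros1 and 0.17 for Gas6, turned to −0.040 and −0.020 without that array, and the value for Pros1 was 0.0076 without Cbl-b-/- replicate 2. Proz, the vitamin K-dependent cofactor for the inhibition of factor X, lay just above background at 5.69 ± 0.03 in Cbl-b-/- and 5.55 ± 0.07 in WT skin (SD, n = 3 each). Proc, encoding protein C itself, did not exceed background.

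Plau was the fibrinolysis gene that differed between genotypes. It encodes urokinase, the plasminogen activator that acts in tissue and on the surface of migrating cells. Plau read 7.84, 7.92 and 7.69 in Cbl-b-/- arrays, against 7.52, 7.29 and 7.12 in WT arrays. All Cbl-b-/- arrays lay above all WT arrays, WT replicate 3 being the lowest. For Plau the log2 fold change was 0.51 (standard error 0.13, 95% interval 0.21 to 0.81, unadjusted p = 0.00576 and adjusted p = 0.685 from limma), which stayed under the 1.5-fold threshold. It ran from 0.41 without WT replicate 3 to 0.61 without WT replicate 1, and only in the fit without WT replicate 1 did it meet the thresholds. Its unadjusted p stayed under 0.05 in limma when any array was left out, with a range of 0.00237 to 0.0211.
Plaur, the receptor that holds urokinase on the cell surface, varied within Cbl-b-/- skin. It read 7.43, 8.06 and 6.38 in Cbl-b-/- arrays, against 7.10, 7.25 and 7.06 in WT arrays. The Cbl-b-/- arrays thus held both the highest and the lowest value, and their SD was 0.85, against 0.10 in WT skin. The log2 fold change of 0.16 (95% interval −0.79 to 1.10) was −0.23 without Cbl-b-/- replicate 2. Without Cbl-b-/- replicate 3 it was 0.61 and met the thresholds (adjusted p = 0.827 from limma).
Plat, the tissue-type activator, read 7.08, 7.33 and 7.05 in Cbl-b-/- arrays and 7.09, 7.01 and 7.07 in WT arrays, with a log2 fold change of 0.094 (95% interval −0.14 to 0.33) that was 0.0068 without Cbl-b-/- replicate 2, its highest array. Anxa2, a surface protein that binds plasminogen and its tissue-type activator, read 10.59, 10.76 and 10.27 in Cbl-b-/- arrays and 10.58, 10.70 and 10.28 in WT arrays. The log2 fold change of Anxa2 was 0.022 (95% interval −0.37 to 0.42), −0.089 leaving out Cbl-b-/- replicate 2 and −0.098 leaving out WT replicate 3. Plg, encoding plasminogen, was under background in both genotypes.

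**Figure D3:**
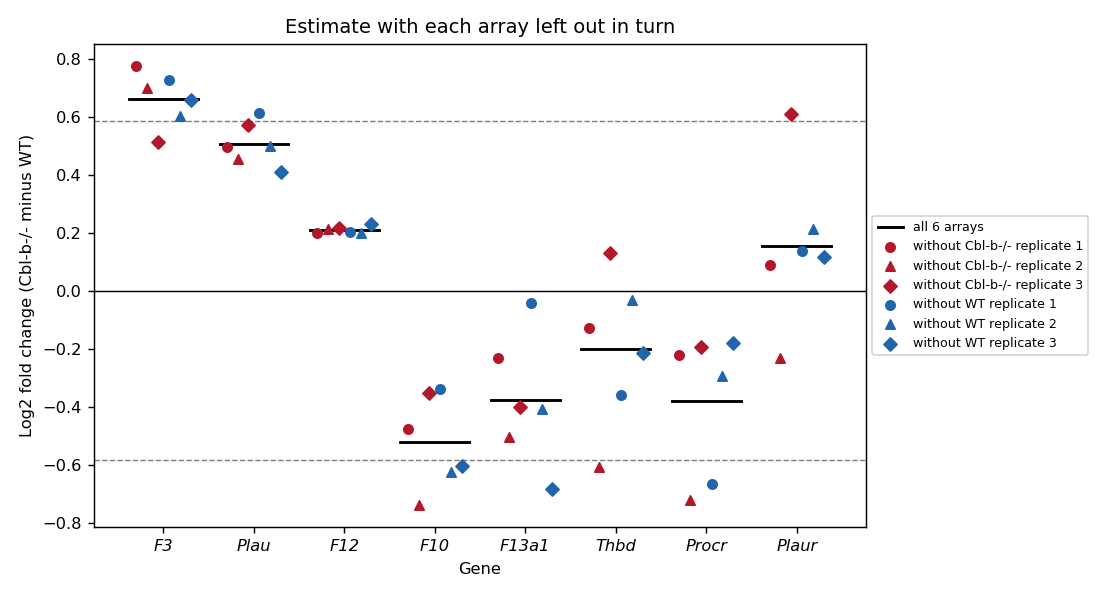
Estimates for 8 genes (horizontal axis; vertical axis, log2 fold change of Cbl-b-/- over WT) with all 6 arrays (black bars) and with each array left out (red, a Cbl-b-/- array; blue, a WT array; the shape gives the replicate). Dashed lines mark 1.5-fold; F3 stays between 0.51 and 0.78 and Plau between 0.41 and 0.61, while Thbd and Plaur fall on both sides of 0.

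Thbd, Procr and Plaur were the 3 genes whose SD in Cbl-b-/- skin exceeded the 95th percentile of all rows (0.48). Procr was also wide in WT skin (SD 0.51, against a 95th percentile of 0.45). All of them were highest among the Cbl-b-/- arrays in replicate 2 and lowest in replicate 3. The mean level of 5 neutrophil genes followed the same order, at 7.60, 9.62 and 6.999 in Cbl-b-/- replicates 1, 2 and 3, against 8.24 to 8.46 in WT arrays. The keratinocyte list had that order too, at 11.20, 11.46 and 11.06 in these replicates. Replicate 2 was the lowest of all 6 arrays for the adipocyte list (7.56, against 7.9992 to 9.39 in the other arrays) and the skeletal muscle list (9.36, against 9.93 to 10.92). Of the 21 genes above background, 8 had their highest array of all 6 in Cbl-b-/- replicate 2. The share of all rows with their highest array there was not counted, so this count cannot be called particular to these genes. The part of these cell types in the values was not tested. F7, Tfpi, F10, Pros1, Plat, Plau and Anxa2 had the same order within Cbl-b-/- skin, whereas F3 was highest in replicate 3.

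**Figure D4:**
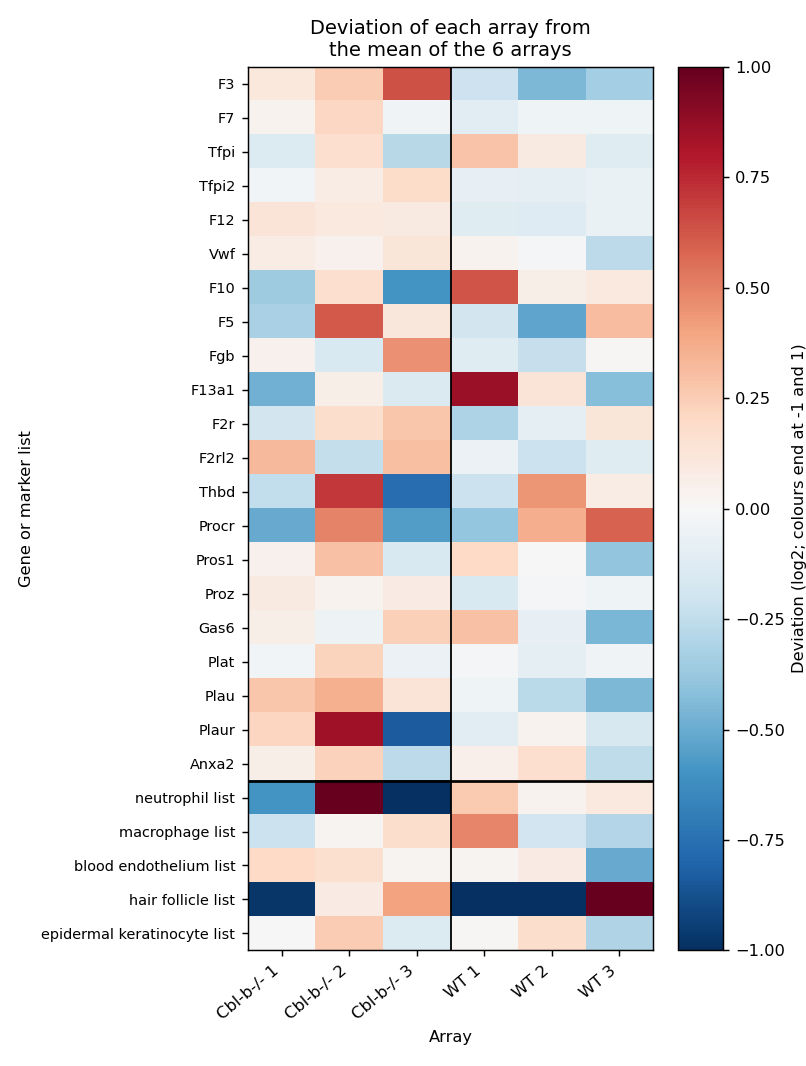
Deviation of each array (horizontal axis, Cbl-b-/- left of WT) from the mean of the 6 arrays (colour, log2), for the 21 genes above background and, under the line, for the mean of 5 marker lists (vertical axis). Cbl-b-/- replicate 2 is high and replicate 3 low for Thbd, Procr, Plaur and the neutrophil list, and WT replicate 3 stands out for the hair follicle list.

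Of 44 other genes of the pathway, 38 had a row of their own. By the study's thresholds 0 were higher and 1, Mmrn1, was lower, where 0.276% of all rows were higher and 0.945% lower. At an unadjusted p under 0.05 in limma 3 were higher and 1 lower (3.68% and 2.87% of all rows), and the median log2 fold change was 0.037. Mmrn1, a protein of platelets and endothelium that binds factor V, read 3.64, 3.91 and 3.78 in Cbl-b-/- arrays, against 7.14, 6.87 and 5.99 in WT arrays. The genotypes were far apart (adjusted p = 0.0894 from limma), and the Cbl-b-/- arrays lay under the background level, so the difference is given as at least 2.39-fold lower, which sets the background level of 5.41 against the WT mean of 6.67. The mean level of 4 measured lymphatic endothelial genes ran the other way, at 8.12 to 8.38 in Cbl-b-/- and 7.72 to 8.04 in WT arrays, without overlap. The genes of that list differed among themselves. Prox1 and Flt4 met the study's thresholds as higher, while Lyve1 and Pdpn overlapped between genotypes, with log2 fold changes of 0.42 and −0.32. The part of lymphatic endothelium in the Mmrn1 values was not tested.
Among 9 measured inhibitors of clotting and of plasmin, Serpind1, heparin cofactor II, had a log2 fold change of 0.22 and Pzp, an alpha-2-macroglobulin, of 0.28, both under the background level in both genotypes. Klf4, a transcription factor of differentiating epidermis that also raises thrombomodulin in endothelium, read 9.49, 9.66 and 9.98 in Cbl-b-/- arrays, against 9.28, 9.20 and 9.44 in WT arrays. The difference was 0.40 on the log2 scale (adjusted p = 0.748 from limma), with WT replicate 3 just under the lowest Cbl-b-/- array. In the 6 genes of the vitamin K cycle and factor secretion, and the 8 of the kinin and Gas6 receptors and transglutaminases, 0 passed an unadjusted p under 0.05 in limma. The gene with the lowest p was Furin (0.13), a protease that cuts proproteins, in the first list and Mertk (−0.27), a receptor for Gas6, in the second, with log2 fold changes in parentheses.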

How the data were processed

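RNA from dorsal skin (3 Cbl-b-/- and 3 WT samples) was profiled on 6 Affymetrix Mouse Gene 1.0 ST arrays. Values were deposited on a log2 scale, and the authors had obtained them by RMA (background correction, then quantile normalization of arrays, then median polish) in Partek Genomics Suite, version 6.5 in the submitters' processing notes. Quantile normalization fixes the distribution of each array, so changes are relative to all rows. Gene symbols came from the platform annotation (21789 rows with 1 symbol, 1621 with several, 12146 with none). Genotypes were compared on all 35556 rows with limma 3.58.1 (R 4.3.3), Cbl-b-/- minus WT, with p-values adjusted over all rows by the method of Benjamini and Hochberg. The script was tested on simulated data. The methods' test was a one-way comparison of each row. Replicates are described as biological, and no scan date or batch was given. Alternatives were the methods' test, an intensity trend, cyclic loess, median centring, a filter at background, the mean over a gene's rows, the replicate number as a block, and leaving out each array.

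Values per array are given for F3, for genes with an unadjusted p under 0.05, for the gene of highest level in each role and for genes of wide spread. Other genes were chosen after their values were seen. The members and lists were chosen with earlier results of these data known. Levels of different genes depend on their probes and were not ranked. The number of arrays limits the precision.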

Additional observations from a re-analysis of the deposited data

How the results depend on the processing

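F3, Plau and F12 kept their direction under all 13 alternatives, and F3 and Plau their unadjusted p under 0.05. The count of genes at the study's thresholds was 1 (F3) under all 7 alternatives that kept 6 arrays, and 1 to 4 when each array was left out. The count at an unadjusted p under 0.05 (3) ran from 2 to 7 without single arrays, 7 being without Cbl-b-/- replicate 2 (2656 of all 35556 rows), and was 4 in the methods' test (2481 of all rows, against 2329 in limma). The count at an adjusted p under 0.05 was 0 throughout. The median log2 fold change was 0.090 after cyclic loess, 0.15 for rows above background only and 0.065 to 0.13 without single arrays. Signs turned only when arrays were left out, with ranges of −0.098 to 0.16 for Anxa2, −0.020 to 0.36 for Gas6, −0.040 to 0.26 for Pros1, −0.23 to 0.61 for Plaur, −0.61 to 0.13 for Thbd, and, at or under background, −0.086 to 0.045 for F11, −0.11 to 0.067 for F8 and −0.061 to 0.022 for Plg. The cause was not tested. The count of genes with all Cbl-b-/- arrays above WT (8) was 4 after cyclic loess and 7 after median centring, both chosen after seeing the data. Of all rows, 8.66% lay above on the deposited values, 5.66% after cyclic loess and 7.97% after median centring. The shares below were 4.89%, 6.58% and 5.21%.

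Over all rows, 434 met the study's thresholds, 267 in the methods' test and 790 without Cbl-b-/- replicate 2. At an unadjusted p under 0.05 the split of all rows was 1307 higher and 1022 lower, 808 and 1337 after cyclic loess, and 1172 and 1318 with the replicate block. Whether the shared replicate numbers pair the arrays could not be decided from the values. Deviations from the genotype means correlated at 0.23, 0.092 and 0.25 for equal numbers, the highest value for each Cbl-b-/- array. For unequal numbers the correlations ran from −0.33 to 0.23. WT replicate 2 correlated more with Cbl-b-/- replicate 1 (0.23) than with Cbl-b-/- replicate 2. With the replicate number as a block, 1 gene met the thresholds and 3 an unadjusted p under 0.05 (F3, Plau and F12), and the median was 0.13.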

Other observations

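Both rows of Fga gave similar values. The row not used above read 4.76, 4.82 and 4.82 in Cbl-b-/- arrays, against 4.71, 4.51 and 4.68 in WT arrays, all under background. The transcript cluster annotated to both Cyp4v3 and Klkb1, which cannot be assigned to plasma kallikrein alone, read 6.21, 5.70 and 6.04 in Cbl-b-/- arrays, against 5.92, 5.75 and 5.66 in WT arrays.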
